A study of Mus musculus with 32 samples.

Results

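The postsynaptic density is the protein mesh that lies under excitatory synapses, and 32 genes for its scaffolds, adhesion molecules and close partners were followed in brain RNA from APOE mice. They were the entries of the count table that carried 1 of the 32 gene names, out of 57010 entries in all. All 32 had enough counts to be tested, among 20298 genes tested.

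The study sequenced messenger RNA from brain tissue homogenates of 32 mice, and the labels name no brain region. The mice had the genotype APOE3/3 (E3/3) or APOE4/4 (E4/4), the human isoforms of the lipid carrier apolipoprotein E, on both alleles. They received D4F, a peptide built to mimic apolipoprotein A-I, or the vehicle, phosphate-buffered saline (PBS), daily for 12 weeks. According to the series description, treatment began at 10.5 ± 0.1 months of age and brains were taken at 13.2 ± 0.1 months. The 8 groups (E3/3 or E4/4, female or male, vehicle or D4F) held 4 mice each, so each combination of genotype and treatment held 8. All mice carried human APOE, so no comparison here had mice with mouse Apoe as a control. The mouse Apoe entry held 0.957 to 3.40 counts per M counts (CPM; M, mega) over the 32 libraries, with medians in vehicle mice of 2.67 CPM (E3/3) and 2.90 CPM (E4/4). Each mouse gave 1 library, and the p-values below measure the spread between mice. The numbers that name the libraries fell in separate ranges for the genotypes, without overlap. Anything that went with those numbers could therefore not be told apart from genotype in the genotype comparisons, and its part was not tested.

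An excitatory synapse is built in layers. Neuroligins and leucine-rich repeat proteins such as LRRTM reach across the cleft to presynaptic neurexins, and AMPA receptors with their auxiliary subunits sit beside them in the membrane. Beneath lie the membrane-associated guanylate kinase scaffolds (the DLG proteins, with PSD-95 encoded by Dlg4), which bind the SAPAP proteins (Dlgap genes), which bind the SHANK proteins, which in turn bind HOMER. Deeper still, regulators of small GTPases and actin shape the dendritic spine. Gephyrin, encoded by Gphn, does the scaffold's work at inhibitory synapses, where neuroligin 2 is also found.

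The members differ widely in base composition, and that composition went with the results below. The first 150 coding bases of 4 members are printed to show this, read from GRCm38 with GENCODE M21 transcripts, 5′ to 3′, with capitals for runs of at least 6 G or C bases. Shank1 and Dlgap3 had the largest negative log2 differences between the genotypes in vehicle mice. Dlg1 and Nlgn1 were not called. They were picked for the lowest coding GC content among uncalled members with a complete coding transcript, apart from Lrrtm2, so their low GC content was set by the choice. Shank1 (chr7:44312707-44312856, plus strand) and Dlgap3 (chr4:127194613-127194762, plus strand) lie within 1 exon each. Nlgn1 (chr3:26133585-26133734, minus strand) also does, while the Dlg1 stretch (chr16:31664852-31665705, plus strand) joins 2 exons.
Shank1: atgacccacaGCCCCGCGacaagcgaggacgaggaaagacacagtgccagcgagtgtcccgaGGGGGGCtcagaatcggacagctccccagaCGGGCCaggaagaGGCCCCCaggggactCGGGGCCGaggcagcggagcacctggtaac
Dlgap3: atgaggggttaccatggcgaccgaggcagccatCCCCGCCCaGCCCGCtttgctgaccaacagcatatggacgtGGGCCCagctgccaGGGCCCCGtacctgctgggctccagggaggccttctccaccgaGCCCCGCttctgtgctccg
Dlg1: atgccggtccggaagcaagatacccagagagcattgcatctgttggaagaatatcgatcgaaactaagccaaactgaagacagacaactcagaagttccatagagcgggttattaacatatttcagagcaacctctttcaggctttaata
Nlgn1: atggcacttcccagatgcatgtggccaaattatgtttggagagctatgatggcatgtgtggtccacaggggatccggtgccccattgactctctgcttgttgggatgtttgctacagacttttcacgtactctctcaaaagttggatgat
Shank1 and Dlgap3 were 68% G or C over this stretch and held 5 such runs each. Dlg1 was 42.7% and Nlgn1 48% G or C, and neither held a run of that length.

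Libraries held 17.77 to 45.06 M counts. They fell on either side of a gap at 26 M, with 11 in a lower class (17.77 to 23.58 M) and 21 in a higher class (28.95 to 45.06 M). The lower class held 6 of 8 E3/3 vehicle libraries, 2 of 8 E3/3 D4F, 1 of 8 E4/4 vehicle and 2 of 8 E4/4 D4F libraries, so depth and group could not be fully told apart in comparisons with E3/3 vehicle. A GC slope was read for each library, from log2 CPM minus each gene's mean over the 32 libraries, against GC percent. It is thus relative to the average library. Its median was 0.0131 in E3/3 vehicle (range −0.00522 to 0.0315) and −0.00722 in E4/4 vehicle (−0.0111 to −0.000285). None of the 10 neuronal, 10 astrocyte and 10 oligodendrocyte markers was at 0 in any library. Single libraries also stood apart. Over the 32 members, the median log2 deviation from the E3/3 vehicle mean was −0.40 to −0.24 in 7 E4/4 vehicle libraries but −0.02 in female E4/4 vehicle replicate 1, the only one of that group in the lower depth class. Female E3/3 vehicle replicate 1 had the lowest median deviation of its group, −0.16, and the steepest GC slope, 0.0315. Male E3/3 D4F replicate 1 had the lowest of its group, −0.33.

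Levels per length of transcript spanned from dendrin to Homer3. Dendrin (Ddn), a postsynaptic protein whose messenger RNA is carried into dendrites, averaged 229 ± 37.4 CPM per kilobase over all 32 libraries (SD, n = 32). Agap2, which switches off the GTPase ARF1 and is also known as PIKE, followed at 136 ± 18.8 CPM per kilobase, and both stood apart from the next member by more than their spread. Baiap2, Dlg4 and Dlgap3 followed at 69.9 ± 8.20, 59.8 ± 10.7 and 58.0 ± 14.7 CPM per kilobase and overlapped within their SD. The lowest were Homer2 (3.96 ± 0.773), Nlgn1 (3.59 ± 0.399) and Homer3 (2.33 ± 0.335 CPM per kilobase). Shank1 varied most between libraries, with a coefficient of variation of 34.3% in CPM, and Dlg1 least, with 6.42%.

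**Figure D1:**
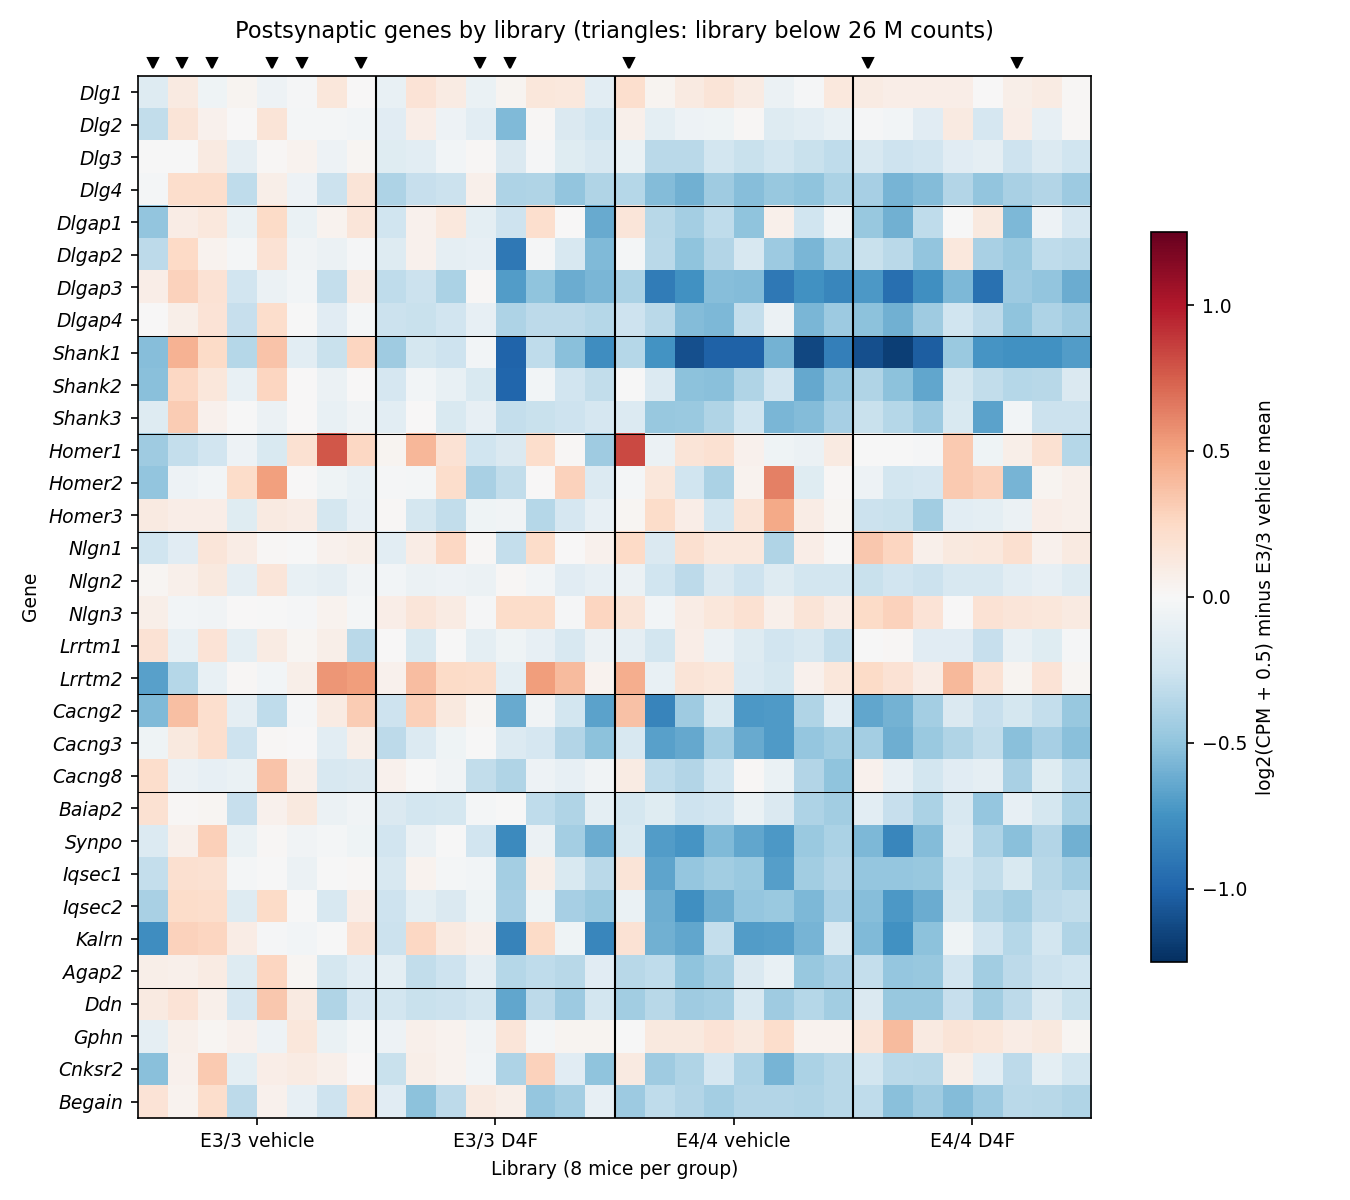
Log2 CPM of each of the 32 members in each of the 32 libraries, as the difference from that member's mean in E3/3 vehicle mice, with members grouped by role and libraries by group. Triangles mark the 11 lower-depth libraries. The SAPAP and SHANK rows are mostly below 0 in E4/4 vehicle libraries, while the HOMER rows show no shared shift. In female E4/4 vehicle replicate 1, Shank1, Shank3, Dlgap3 and Dlgap4 are below 0, Dlgap2 and Shank2 near 0 and Dlgap1 above it.

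The first comparison asked how E4/4 and E3/3 brains differed without treatment. Of the 32 members, 19 were lower in E4/4 vehicle mice and 0 were higher (edgeR quasi-likelihood F test, Benjamini-Hochberg adjusted p below 0.05 over all 20298 genes). Among all genes tested, 10.5% were called lower and 9.89% higher. The log2 difference was below 0 for 24 of 32 members, with a median of −0.34, against a median of 0.017 over all genes tested. By role, the members that fell were 3 of 3 SHANK genes, 3 of 4 SAPAP genes, 6 of 6 actin and GTPase regulators, 2 of 4 DLG genes, 1 of 3 AMPA receptor auxiliary subunits, 1 of 5 adhesion genes, 3 of 4 other scaffolds and 0 of 3 HOMER genes. In homogenates, fewer cells of a type and less RNA per cell cannot be told apart.

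Several cell markers moved between the same groups, and their part in the result was not tested. Excitatory neurons of cortex and hippocampus were read from 12 markers, of which 6 were lower and 0 higher in E4/4 vehicle mice. Their summed level ran from 4731 to 8410 CPM in E3/3 mice and from 3278 to 6494 CPM in E4/4 mice. Of 10 markers of neurons in general, 5 were lower and 0 higher, with summed levels of 6493 to 9165 and 6520 to 9616 CPM. Markers of other neurons were read as well. Of 10 markers of striatal projection neurons, 0 were called and 1 was below 0, with a median log2 difference of 0.34 (685 to 3345 and 1168 to 3414 CPM). Of 10 markers of GABAergic interneurons, 3 were lower and 1, Gad1, was higher (1259 to 1475 and 1228 to 1705 CPM). Of 10 oligodendrocyte markers, 6 were higher and 0 lower (5207 to 6277 and 5560 to 7314 CPM). Of 8 olfactory bulb markers, 4 were higher and 0 lower (41.8 to 131 and 57.3 to 352 CPM). All 5 blood markers were lower (7.67 to 113 and 3.66 to 15.01 CPM). Of the neuronal, oligodendrocyte and olfactory bulb markers, none was at 0 in any vehicle library, and of the blood markers Alas2 was at 0 in at least 1 E4/4 vehicle library. Of 10 hypothalamic markers, 8 were tested and 2 of those were higher (6.87 to 14.5 and 8.03 to 41.2 CPM), with Oxt, Avp, Sim1 and Otp at 0 in at least 1 library of each vehicle group. Of 10 choroid plexus markers, 2 were higher (192 to 593 and 194 to 1798 CPM), with Kcne2, Folr1 and Slc4a5 at 0 in some vehicle libraries.

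The DLG scaffolds anchor receptors in the membrane by binding their tails. Dlg4, which encodes PSD-95, the central scaffold of the density (chromosome 11, 70016942 to 70047522 in GRCm38), ranged from 778 to 1127 CPM in E3/3 vehicle mice, with a median of 987. In E4/4 vehicle mice it ranged from 641 to 759 CPM, with a median of 689. All 8 E4/4 libraries lay below all 8 E3/3 libraries. The log2 difference was −0.49 (SE 0.0730, 95% interval −0.64 to −0.34, edgeR adjusted p = 5.97e-05), or 0.711-fold. Dlg3, which encodes SAP102 (chromosome X, 100767722 to 100818410), ranged from 230 to 268 CPM (median 249) in E3/3 vehicle and from 197 to 234 CPM (median 204) in E4/4 vehicle. The groups met only through female E4/4 replicate 1 at 234 CPM. Its log2 difference was −0.26 (SE 0.0469, edgeR adjusted p = 0.000314). Dlg1 and Dlg2, which encode SAP97 and PSD-93, overlapped throughout and were not called. Their log2 differences were 0.08 (95% interval −0.03 to 0.19) and −0.07 (−0.22 to 0.07).

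The SAPAP proteins link the DLG layer to SHANK. Dlgap3, encoding SAPAP3 (chromosome 4, 127169204 to 127237022), whose loss in mice causes compulsive grooming, ranged from 284 to 424 CPM in E3/3 vehicle (median 355). It ranged from 187 to 265 CPM in E4/4 vehicle (median 206). The groups did not overlap, and the log2 difference was −0.70 (SE 0.0863, 95% interval −0.87 to −0.52, edgeR adjusted p = 1.72e-05), or 0.617-fold. Dlgap4 (chromosome 2, 156613705 to 156764363) ranged from 286 to 407 CPM (median 348) in E3/3 vehicle and from 235 to 332 CPM (median 265) in E4/4 vehicle, with some overlap. Its log2 difference was −0.39 (SE 0.0720, edgeR adjusted p = 0.000455). Dlgap2, the least abundant of the 4 per length, also fell, from a median of 50.3 to 39.1 CPM (log2 −0.36, edgeR adjusted p = 0.0117). Dlgap1 overlapped between the groups and was not called (log2 −0.20, 95% interval −0.45 to 0.04).

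SHANK proteins form the deeper platform that joins SAPAP to HOMER and the actin skeleton, and all 3 genes fell. Shank1 (chromosome 7, 44310253 to 44360572) ranged from 441 to 862 CPM in E3/3 vehicle (median 667) and from 289 to 498 CPM in E4/4 vehicle (median 335). Only female E4/4 replicate 1, at 498 CPM, reached the E3/3 range, and the other 7 E4/4 libraries lay at or below 422 CPM. The log2 difference was −0.87 (SE 0.142, 95% interval −1.16 to −0.58, edgeR adjusted p = 0.000176), or 0.547-fold, the largest among the members. Another coding gene, 1700008O03Rik, overlaps the Shank1 locus, and reads from the overlap may not be told apart. Shank3 (chromosome 15, 89499623 to 89560261), a gene linked in people to autism and Phelan-McDermid syndrome, ranged from 188 to 262 CPM (median 206) in E3/3 vehicle. It ranged from 141 to 186 CPM (median 155) in E4/4 vehicle, below every E3/3 library. Its log2 difference was −0.41 (SE 0.0722, edgeR adjusted p = 0.000277). Shank2 fell from a median of 212 to 157 CPM with overlapping libraries (log2 −0.37, edgeR adjusted p = 0.0155), and this call was lost without female E3/3 vehicle replicate 2 (adjusted p = 0.0538).

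HOMER proteins bind SHANK and the metabotropic glutamate receptors, and none of the 3 genes was called. Homer1 ranged from 109 to 254 CPM (median 136) in E3/3 vehicle and from 141 to 264 CPM (median 157) in E4/4 vehicle. Its log2 difference was 0.14 (95% interval −0.12 to 0.40). Homer2 and Homer3 had log2 differences of 0.00 (−0.28 to 0.29) and 0.12 (−0.06 to 0.30). Homer3 was counted at only 6.93 to 11.6 CPM, and it shares its locus with Ddx49 on the other strand. The counting's strand setting is not given in the sources used here, so reads from the 2 genes may not be told apart.

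**Figure D2:**
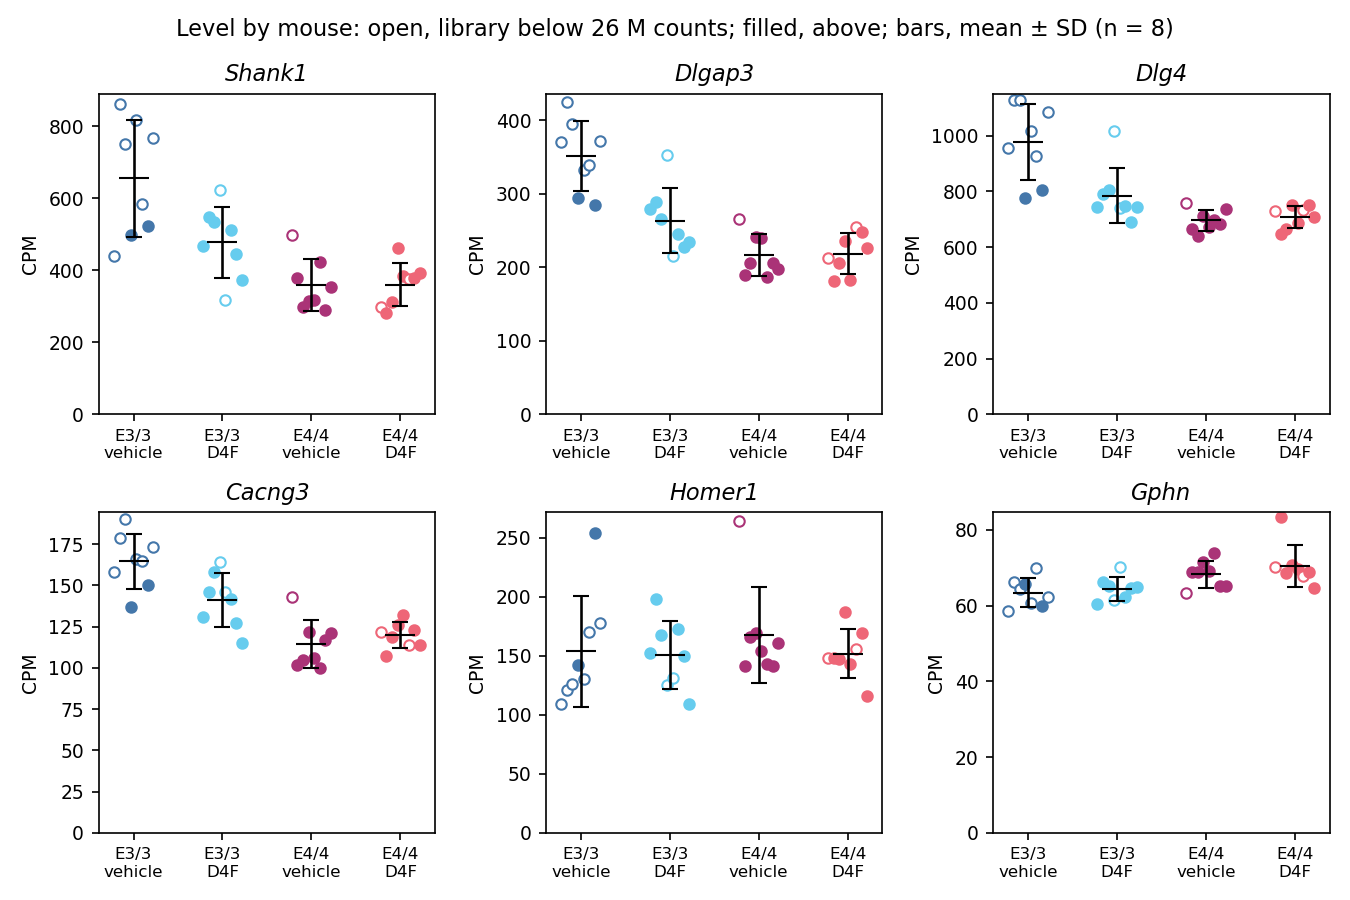
CPM in each library by genotype and treatment for Shank1, Dlgap3, Dlg4, Cacng3, Homer1 and Gphn, with the mean and SD (n = 8 each) and with lower-depth libraries drawn as open symbols. Dlgap3 and Dlg4 have no overlap between E3/3 and E4/4 vehicle mice, Shank1 and Cacng3 meet only through the open E4/4 vehicle library, and Homer1 and Gphn overlap.

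Adhesion genes were mostly not called. Nlgn2, the neuroligin of inhibitory synapses, ranged from 285 to 343 CPM (median 306) in E3/3 vehicle and from 246 to 292 CPM (median 262) in E4/4 vehicle, with slight overlap. It fell by 0.22 on the log2 scale (edgeR adjusted p = 0.00160). Nlgn1 and Nlgn3 had log2 differences of 0.04 (95% interval −0.12 to 0.20) and 0.11 (0.01 to 0.20, adjusted p = 0.105). The synaptic organizers Lrrtm1 and Lrrtm2 had differences of −0.16 (−0.29 to −0.03, adjusted p = 0.0666) and 0.04 (−0.17 to 0.26). Each lies within a catenin gene on the other strand, Ctnna2 and Ctnna1. Gphn, the inhibitory scaffold, was at 58.5 to 69.9 CPM in E3/3 vehicle and 63.3 to 74.0 CPM in E4/4 vehicle (log2 0.11, adjusted p = 0.125).

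The auxiliary subunits carry AMPA receptors to the synapse and hold them there. Cacng3 (chromosome 7, 122670492 to 122769393) ranged from 137 to 190 CPM (median 166) in E3/3 vehicle and from 100 to 143 CPM (median 112) in E4/4 vehicle. Only female E4/4 replicate 1, at 143 CPM, reached the E3/3 range. The log2 difference was −0.52 (SE 0.0744, 95% interval −0.68 to −0.37, edgeR adjusted p = 4.52e-05). Cacng2, which encodes stargazin, and Cacng8 had differences of −0.37 (−0.68 to −0.06, adjusted p = 0.0801) and −0.22 (−0.40 to −0.04, adjusted p = 0.0741). Neither was called.

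All 6 regulators of actin and small GTPases fell. Synaptopodin (Synpo), an actin-binding protein of the spine apparatus (chromosome 18, 60593973 to 60660142), ranged from 261 to 360 CPM (median 286) in E3/3 vehicle and from 176 to 257 CPM (median 193) in E4/4 vehicle. The groups did not overlap, and the log2 difference was −0.55 (SE 0.0955, 95% interval −0.74 to −0.35, edgeR adjusted p = 0.000257). Iqsec2 and Iqsec1, which activate ARF GTPases, had medians of 224 and 284 CPM in E3/3 vehicle and 152 and 208 CPM in E4/4 vehicle. Female E4/4 replicate 1 was the highest of its group for both, at 206 and 318 CPM. Their log2 differences were −0.50 and −0.41 (edgeR adjusted p = 0.000488 and 0.00197). Agap2 fell from a median of 972 to 725 CPM (log2 −0.34), with 808 to 1134 CPM in E3/3 vehicle and 667 to 887 CPM in E4/4 vehicle. Baiap2, which encodes the actin regulator IRSp53, fell from a median of 397 to 334 CPM (log2 −0.25), with 321 to 448 and 289 to 369 CPM. For both genes the upper E4/4 libraries reached the lower E3/3 libraries.

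Kalrn, which encodes kalirin, an activator of small GTPases, fell from a median of 580 to 372 CPM (log2 −0.45, edgeR adjusted p = 0.0473). Its libraries ran from 327 to 688 CPM in E3/3 vehicle and from 347 to 637 CPM in E4/4 vehicle. The overlap came from female replicate 1 of each group, the lowest in E3/3 and the highest in E4/4. The other libraries ran from 547 to 688 CPM in E3/3 and from 347 to 488 CPM in E4/4. The call held in 8 of 32 fits that each left out 1 library, with adjusted p up to 0.116. Among the remaining scaffolds, Ddn fell from a median of 1091 to 764 CPM (794 to 1301 and 753 to 897 CPM, log2 −0.40). Begain, which binds the guanylate kinase domain of PSD-95, fell from a median of 186 to 139 CPM (143 to 209 and 131 to 144 CPM, log2 −0.39). The E4/4 vehicle libraries of Begain were tightly grouped, with an SD of 4.03 CPM against 25.6 CPM in E3/3 vehicle. Cnksr2, a scaffold of RAS signalling, fell from a median of 168 to 123 CPM (112 to 201 and 107 to 174 CPM, log2 −0.33, edgeR adjusted p = 0.0239). Its call was lost without any 1 of 5 libraries, which were female E3/3 vehicle replicates 2 and 3, female E4/4 vehicle replicates 2 and 3 and male E4/4 vehicle replicate 2 (adjusted p up to 0.0929).

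Groups without overlap were found for 4 members, Dlg4, Dlgap3, Shank3 and Synpo, each lower in E4/4 vehicle (12.5% of the members, against 0.695% of all genes tested). No member was higher without overlap, against 0.325% of all genes. The number of members called was 16 to 21 when each library was left out in turn (3125 to 4871 among all genes). It was 21 without female E4/4 vehicle replicate 1, 20 without female E3/3 vehicle replicate 1 and 16 without female E3/3 vehicle replicate 2.

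**Figure D3:**
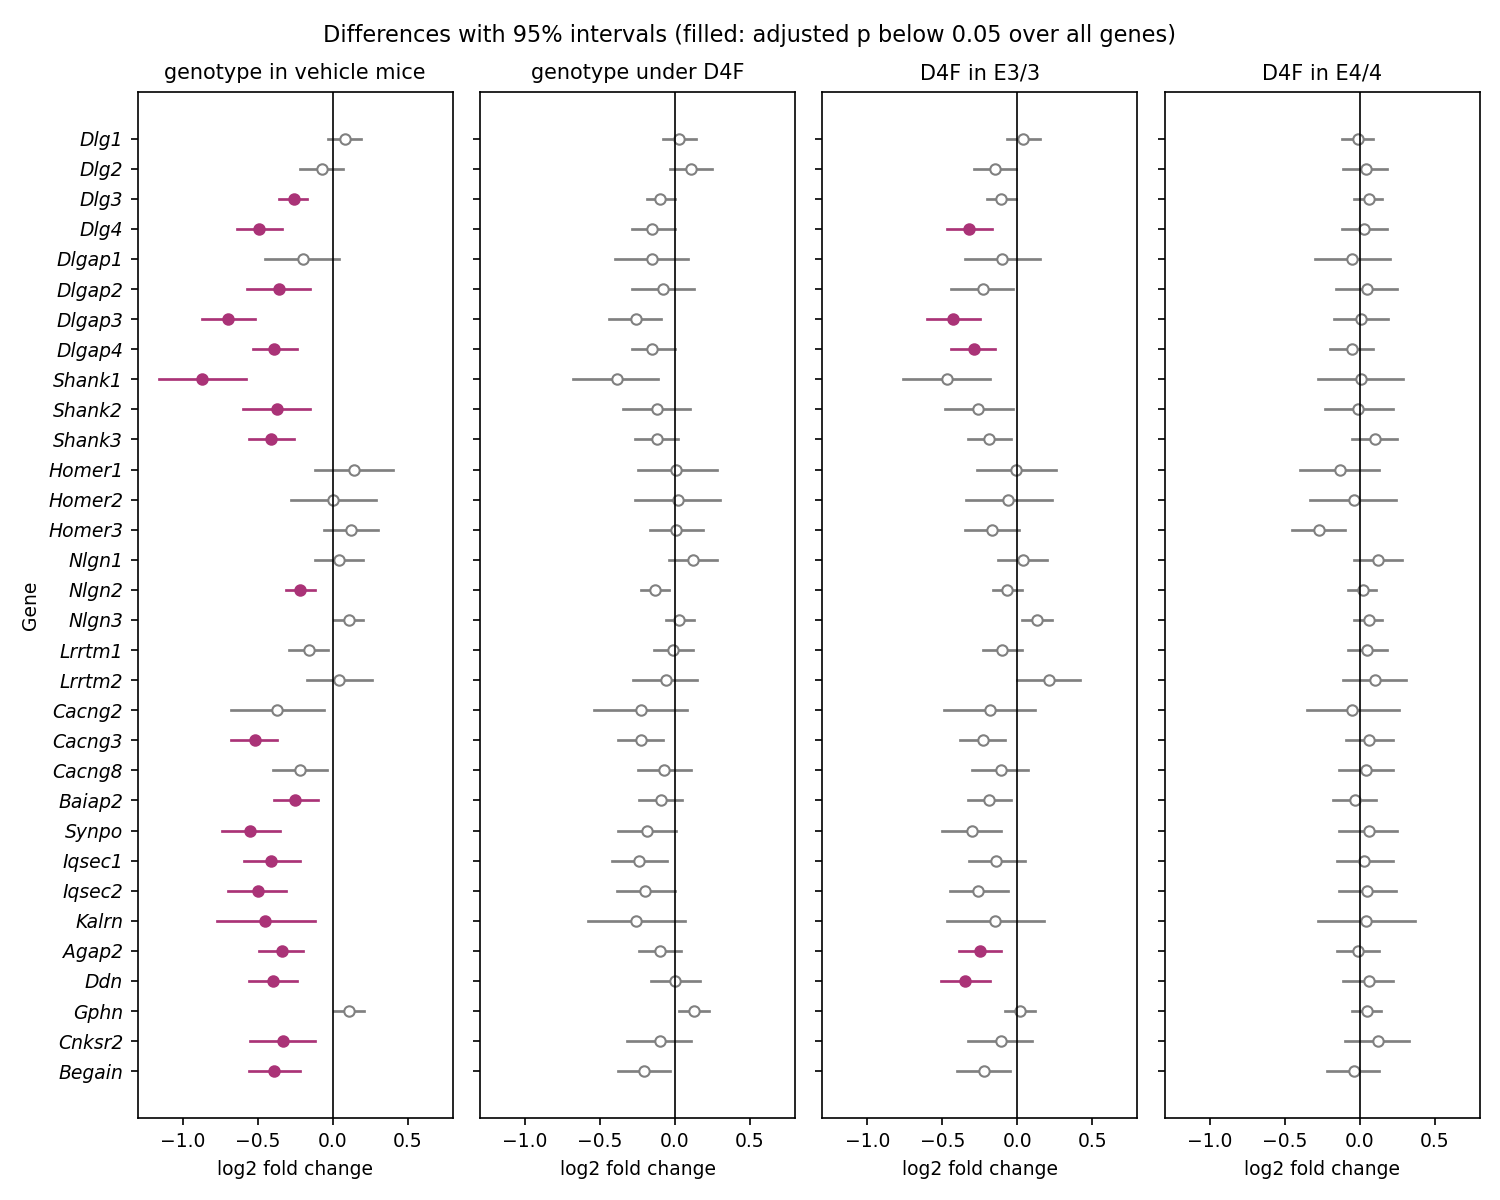
Log2 differences with 95% intervals for the 32 members in 4 comparisons: genotype in vehicle mice, genotype under D4F, D4F in E3/3 and D4F in E4/4. Filled points are called. The points lie below 0 for 24 of 32 members in the genotype comparison in vehicle mice, with 19 called, and for 11 of 32 in D4F in E4/4, with 0 called.

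Within families the mix of paralogs also differed between the vehicle groups, described here per length and without a test. Shank1 made up 58.7% ± 3.95 of SHANK expression in E3/3 vehicle and 50.9% ± 3.08 in E4/4 vehicle (SD, n = 8 each). Shank2 shares ran from 17.2% to 20.8% and from 21.7% to 24.9%, with no overlap between the groups. Dlg4 made up 47.9% ± 3.11 and 41.9% ± 1.07 of DLG expression, and Dlgap3 50.9% ± 3.25 and 44.5% ± 4.05 of SAPAP expression. Nlgn2 made up 83.2% ± 1.21 and 80.1% ± 1.36 of neuroligin expression. In all of these families the member that made up the most in E3/3 vehicle mice had the smaller share in E4/4 vehicle mice. HOMER was different, with Homer1 at 65.7% ± 6.81 and 67.3% ± 6.85. Shank1, Dlg4, Dlgap3 and Nlgn2 also had the GC-richest transcripts of their families, from 54.7% (Dlg4) to 64.5% (Dlgap3). Cacng3 did not, at 54.0% against 64.1% for Cacng8. Homer1 had the GC-poorest HOMER transcript, at 42.0%. The shares were not computed with GC content or depth taken out, so the part of these in the shares was not tested.

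A list of 68 other postsynaptic and adhesion genes, all tested, was set beside the members. In E4/4 vehicle mice 23 were lower and 6 higher, with a median log2 difference of −0.13 and 48 of 68 below 0. The 4 called genes with the smallest p were Adgrb2 (log2 −0.46, SE 0.0629, edgeR adjusted p = 3.73e-05), Git1 (−0.54, SE 0.0785, 4.67e-05), Ppp1r9b (−0.58, SE 0.0846, 5.40e-05) and Lrfn1 (−0.71, SE 0.103, 5.40e-05). Adgrb2 encodes an adhesion receptor of the brain angiogenesis inhibitor family and Git1 a regulator of ARF GTPases. Ppp1r9b encodes spinophilin, which holds protein phosphatase 1 in spines, and Lrfn1 encodes an adhesion protein that binds PSD-95. All 4 were lower in E4/4.

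The calls went with base composition. Of 23 members whose transcripts were above 50% GC, 18 were lower in E4/4 vehicle mice, and of 9 at or below 50%, 1 was (Cnksr2). Over all tested genes with a GC value, 18.8% of the 9321 above 50% GC were lower and 2.64% higher, while 3.19% of the 9852 at or below it were lower and 17.2% higher. Across the 32 members, the log2 difference and GC content had a Pearson's r of −0.640, and across 19173 genes an r of −0.310. These are descriptions over genes measured in the same 16 libraries. With transcript length the members' r was 0.0153 on a log scale. Over the whole coding sequence, GC content had a median of 60.3% in the 19 called members (44.6 to 65.6%) and 51% in 12 not called (45.0 to 60.4%), with no complete coding transcript for Cacng8. The stretches printed above come from members near both ends of this range, and Dlg1 and Nlgn1 were picked for low coding GC content. Other members went the other way, with Homer3, not called, at 60.4% and Cnksr2, called, at 44.6%.

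The DNA before RefSeq transcript starts of the members was read in the same way, without a test. RefSeq promoter windows (GRCm38.p6, from 250 bases before to 50 after the start) were matched for 25 of 32 members by symbol. For each gene the window nearest the annotated 5′ end was taken, at any distance, so some lie inside the gene. The Dlg2 window begins at 91090536 on chromosome 7, for example, while its locus begins at 90476672. The values below therefore mix gene starts with starts inside genes. GC content had a median of 66.3% in the 14 called members with a window (46.3 to 81.3%) and 57.7% in the 11 not called (40.7 to 82.3%). A GC box (GGGCGG on either strand, overlapping matches counted) was found in 9 of those 14 windows and 5 of those 11, and in 35.7% of 32851 promoter windows of that length. The 250 bases before the RefSeq start used for Dlgap3 (chr4:127172630-127172879, plus strand), a called member with a GC-rich transcript, are shown. Those of Homer2 (chr7:81706926-81707175, minus strand), which was not called, are shown with them. Both stretches lie inside the annotated loci, which begin at 127169204 for Dlgap3 and, on the minus strand, at 81707527 for Homer2. Capitals mark GC boxes.
Dlgap3: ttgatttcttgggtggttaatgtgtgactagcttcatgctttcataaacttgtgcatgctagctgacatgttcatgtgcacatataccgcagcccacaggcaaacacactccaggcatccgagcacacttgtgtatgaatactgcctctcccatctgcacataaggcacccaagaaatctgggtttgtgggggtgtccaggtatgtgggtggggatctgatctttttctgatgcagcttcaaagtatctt
Homer2: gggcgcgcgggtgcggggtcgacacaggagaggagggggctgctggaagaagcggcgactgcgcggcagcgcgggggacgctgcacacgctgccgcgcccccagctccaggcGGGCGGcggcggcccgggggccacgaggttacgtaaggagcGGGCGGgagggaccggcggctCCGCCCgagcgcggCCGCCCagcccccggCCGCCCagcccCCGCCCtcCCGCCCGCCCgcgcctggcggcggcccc
The Dlgap3 stretch held 0 GC boxes and its window was 47.7% GC. The Homer2 stretch held 8 and its window was 82.3% GC, although the Homer2 transcript, at 48.6% GC, is poorer in GC than that of Dlgap3, at 64.5%. This pair runs against the medians given above. Other windows with 0 GC boxes were those of Dlg2 and Nlgn1, not called, at 44.7% and 55.7% GC, and of Dlg4 and Cacng3, called, at 46.3% and 55.7%.

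**Figure D4:**
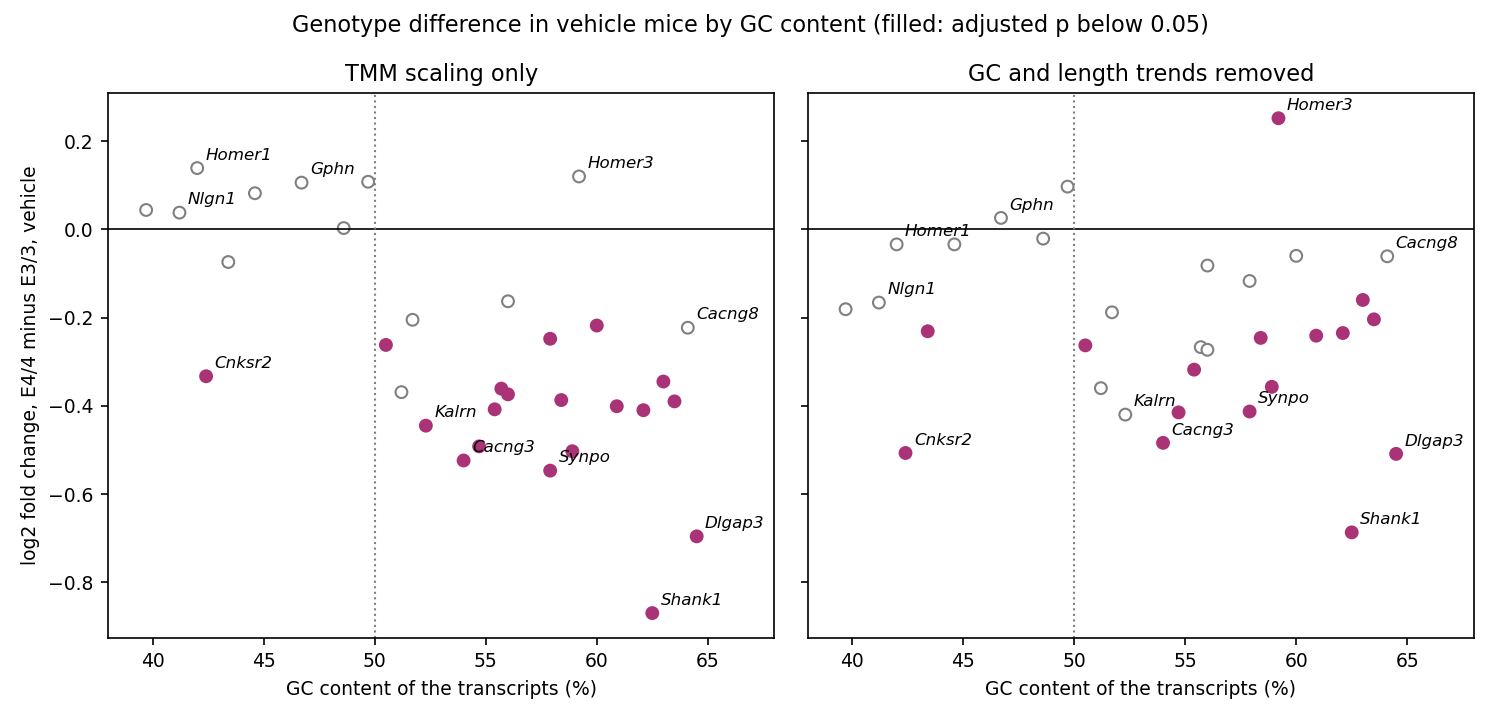
Log2 difference between E4/4 and E3/3 vehicle mice against the GC percent of each member's transcript, before (left) and after (right) per-library trends on GC content and length were removed. Pearson's r over the 32 members is −0.640 on the left and −0.179 on the right, and Shank1 and Dlgap3 stay among the lowest in both.

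Because library GC slope and depth moved with genotype, the members were also read with these terms taken out. After a smooth trend on GC content and length was removed from every library, 15 members were lower (background 8.28%) and 1, Homer3, was higher (log2 0.25, edgeR adjusted p = 0.0262; background 4.57%). With depth class as a term in the model, 14 were lower and 0 higher (background 3.64% and 2.70%). With both, 7 were lower and 0 higher (background 1.20% and 0.719%). The lower ones were Dlg3, Dlg4, Dlgap3, Shank1, Cacng3, Synpo and Cnksr2. In that fit Shank1 was at log2 −0.63 (edgeR adjusted p = 0.0379), Synpo at −0.44 (0.0340), Dlgap3 at −0.42 (0.0145), Cacng3 at −0.39 (0.0254) and Dlg4 at −0.28 (0.0317).

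Among higher-depth libraries alone, with 2 E3/3 and 7 E4/4 vehicle mice, 0 of 32 members were called by edgeR (4 of 22329 genes), 15 had an unadjusted p below 0.05 (3682 genes), and 29 of 32 were below 0 with a median log2 difference of −0.19. Shank1 was at 498 and 524 CPM in those 2 E3/3 libraries and at 289 to 422 CPM in the 7 E4/4 libraries. Synpo was at 277 and 288 CPM against 176 to 223 CPM, and Dlgap3 at 284 and 294 CPM against 187 to 265 CPM. At the higher depth 15 of 32 members lay lower in E4/4 without overlap (10.2% of all genes tested) and 0 higher (7.64%), where 2 libraries stand against 7. The 6 lower-depth E3/3 libraries lay higher on average, at 703 CPM for Shank1 and 372 CPM for Dlgap3, against means of 511 and 289 CPM in the 2 higher-depth ones. The part of depth and GC composition in the genotype difference was not tested beyond these fits.

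**Figure D5:**
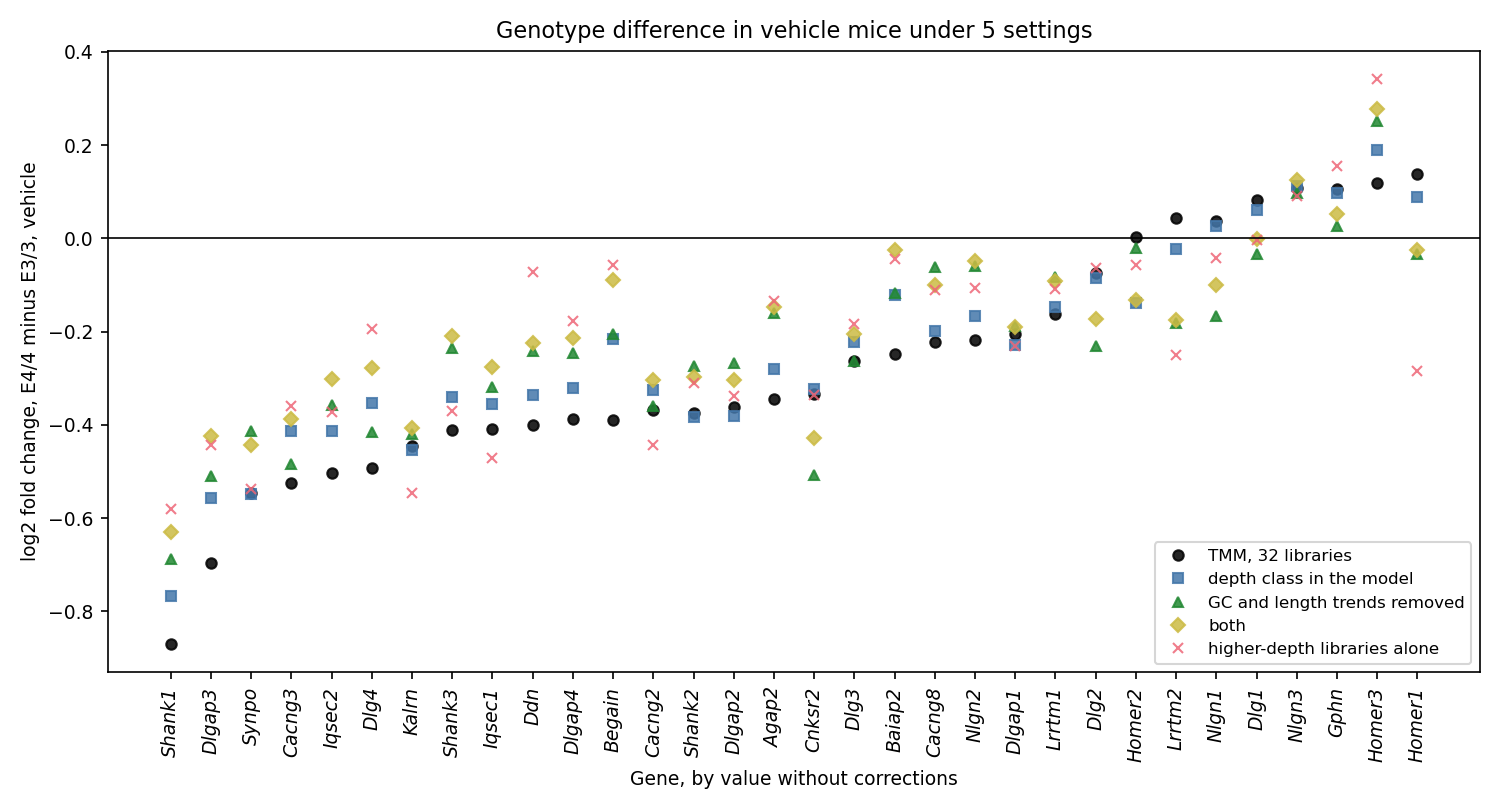
Log2 difference between E4/4 and E3/3 vehicle mice for each of the 32 members, ordered by the value without corrections, under 5 settings marked by symbol and colour. Shank1 runs from −0.87 with TMM scaling to −0.58 in higher-depth libraries alone, and Homer1 moves from 0.14 to −0.28.

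The genotype comparison in the D4F-treated mice used other animals, and 0 of 32 members were called (0.00493% of all genes, 1 gene). By unadjusted p below 0.05, 9 members and 2801 of 20298 genes passed, and limma-voom and DESeq2 also called 0 members (0 and 198 genes). The log2 difference was below 0 for 23 of 32 members, with a median of −0.10. Shank1 ranged from 318 to 622 CPM (median 490) in E3/3 D4F and from 282 to 463 CPM (median 377) in E4/4 D4F, with a log2 difference of −0.39 (95% interval −0.68 to −0.11, edgeR adjusted p = 0.217). Dlgap3 was at −0.26 (−0.44 to −0.09, adjusted p = 0.181) and Cacng3 at −0.23 (−0.38 to −0.08, adjusted p = 0.170). The HOMER genes were at 0.01 to 0.02. Ddn, lower in E4/4 among vehicle mice, was at 0.00 (−0.16 to 0.17) under D4F.

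D4F in E4/4 mice was the test of whether treatment moved these genes on the E4 background, and 0 members were called by edgeR, limma-voom or DESeq2 (0 of 20298 genes by each, with 382 genes at an unadjusted p below 0.05 by edgeR). The differences were below 0 for 11 of 32 members, with a median of 0.04. Dlg4 ranged from 641 to 759 CPM in E4/4 vehicle and from 646 to 751 CPM in E4/4 D4F, and the 2 sets of libraries overlapped almost wholly. Its log2 difference was 0.03 (95% interval −0.12 to 0.18). Shank1 was at 0.01 (−0.28 to 0.29), Dlgap3 at 0.01 (−0.17 to 0.19), Synpo at 0.06 (−0.14 to 0.25) and Cacng3 at 0.06 (−0.09 to 0.22). Homer3 alone had an unadjusted p below 0.05. It ranged from 6.93 to 11.6 CPM in vehicle and from 5.98 to 8.74 CPM under D4F (log2 −0.27, 95% interval −0.45 to −0.10, unadjusted p = 0.00369) and was not called by edgeR after adjustment.

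In E3/3 mice, 5 members fell under D4F and 0 rose (background 1.44% lower and 1.81% higher): Dlg4, Dlgap3, Dlgap4, Agap2 and Ddn. The differences were below 0 for 27 of 32 members, with a median of −0.16. Dlgap3 ranged from 284 to 424 CPM in vehicle and from 215 to 352 CPM under D4F (log2 −0.43, SE 0.0860, edgeR adjusted p = 0.0147). Dlg4 ranged from 778 to 1127 CPM and from 690 to 1015 CPM, with female E3/3 D4F replicate 4 highest among the treated (log2 −0.32, adjusted p = 0.0188 by edgeR). Ddn ranged from 794 to 1301 CPM and from 653 to 879 CPM (log2 −0.35). Dlgap4 ranged from 286 to 407 CPM and from 267 to 326 CPM (log2 −0.29). Agap2 ranged from 808 to 1134 CPM and from 739 to 875 CPM (log2 −0.25). Every one of these 5 overlapped between vehicle and D4F, and 0.0394% of all genes tested were lower without overlap.

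The count changed with depth class and with single libraries. With depth class in the model, 0 of the 32 members and 0 of all genes were called by edgeR, and 11 members (2473 of 20298 genes) had an unadjusted p below 0.05, against 17 (3949 genes) without that term. The members' median log2 difference was −0.13 with the term and −0.16 without it, and 27 of 32 were below 0 in both. The count was 10 without female E3/3 vehicle replicate 4, 1 without female E3/3 vehicle replicate 2 and 1 without male E3/3 vehicle replicate 1. It was 2 without female E3/3 vehicle replicate 3, and 3 without male E3/3 vehicle replicate 4 or without female E3/3 D4F replicate 1, 2 or 3. Over the 32 fits that each left out 1 library, the calls among all genes ran from 99 to 2188, so the swing was not limited to the members. Astrocyte markers moved as well, with 2 of 10 lower and 10 of 10 below 0, and summed levels of 3988 to 5141 CPM in vehicle and 3030 to 4641 CPM under D4F. Of 12 excitatory neuron markers 0 were called and 10 were below 0 (4731 to 8410 and 3804 to 6818 CPM). Of 8 endothelial markers 2 were lower (306 to 403 and 309 to 355 CPM), and of 10 oligodendrocyte markers 1 was higher (5207 to 6277 and 4743 to 6668 CPM). None of these markers was at 0 in any library of the groups, and their part in the result was not tested. Of the 68 other postsynaptic and adhesion genes, 6 were lower and 1 higher.

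The comparisons of genotype in vehicle mice, of D4F in E3/3 and of treated E4/4 with vehicle E3/3 share the 8 E3/3 vehicle libraries, so their values are given side by side only. Dlgap3 was at log2 −0.70, −0.43 and −0.69 in these, Dlg4 at −0.49, −0.32 and −0.46, Shank1 at −0.87, −0.47 and −0.86, and Nlgn3 at 0.11, 0.13 and 0.16. In the last of them, treated E4/4 mice against vehicle E3/3 mice, 17 members were lower and 2 higher (background 9.80% and 9.54%). The higher ones were Nlgn3 (edgeR adjusted p = 0.0148) and Gphn (log2 0.15, adjusted p = 0.0283). Gphn was not called without female E3/3 vehicle replicate 1, male E3/3 vehicle replicate 3 or female E4/4 D4F replicate 2, with adjusted p up to 0.0960. After GC and length trends were removed neither was called (edgeR adjusted p = 0.105 for Nlgn3 and 0.526 for Gphn), nor was either without a filter on low counts (0.0548 and 0.0870), and with depth class in the model Gphn was not (0.0874). Cell markers moved in this comparison too. Of 12 excitatory neuron markers 5 were lower and 0 higher, of 10 neuronal markers 5 were lower and 0 higher, of 8 tested hypothalamic markers 7 were higher and 0 lower, and all 5 blood markers were lower. Their summed levels in E4/4 D4F mice were 3047 to 5346, 6634 to 8447, 14.5 to 52.1 and 2.32 to 43.5 CPM, and their part in the result was not tested.

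The interaction of genotype and D4F called 0 of 32 members (0 of all genes by edgeR, 2113 at an unadjusted p below 0.05, and 12 genes by DESeq2), and 11 had an unadjusted p below 0.05. Its largest member value was Shank1 at 0.48 (95% interval 0.07 to 0.88, edgeR adjusted p = 0.395). Without female E3/3 vehicle replicate 4, 3 members were called, which were Dlg4, Dlgap3 and Ddn, among 303 genes in all.

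The genotype comparison in vehicle mice was also read in each sex. In female vehicle mice 13 members were lower and 1 higher (background 4.71% and 5.62%), and in male vehicle mice 10 were lower and 0 higher (2.53% and 1.44%). With depth class in the model these counts were 7 in females and 0 in males (780 and 2 genes in all). With GC and length trends also removed they were 0 in both (10 and 2 genes in all). Dlgap3 was at log2 −0.72 in females and −0.68 in males, Shank1 at −0.78 and −0.96, and Dlg4 at −0.52 and −0.46. The interaction of genotype and sex called 0 members and 0 genes by edgeR, limma-voom or DESeq2 (1090 genes at an unadjusted p below 0.05 by edgeR), and 2 members had an unadjusted p below 0.05. Sex itself called 0 members (10 genes, 0.0493%, by edgeR) and 0 members at an unadjusted p below 0.05.

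Homer1, called higher in female E4/4 vehicle mice by edgeR, had the clearest unadjusted value for a genotype difference that differed between the sexes. In E3/3 vehicle females it was at 109, 121, 126 and 142 CPM, and in E4/4 vehicle females at 264, 141, 166 and 169 CPM. In males it was at 130, 170, 254 and 178 CPM in E3/3 and at 154, 143, 141 and 161 CPM in E4/4. Among females only the lowest E4/4 library, at 141 CPM, reached down to the highest E3/3 library, at 142 CPM, and among males the groups overlapped. The log2 difference was 0.57 in females (edgeR adjusted p = 0.0440) and −0.29 in males (adjusted p = 0.378), and the interaction was −0.86 (SE 0.258, unadjusted p = 0.00237, edgeR adjusted p = 0.878). In females limma-voom called 0 members higher and DESeq2 called 2 (1084 and 1406 of all genes). By edgeR, 0 were higher with depth class in the model, with GC and length trends removed, or with both (471, 77 and 10 of all genes). The same held without a filter on low counts (834 genes) and in higher-depth libraries alone (0 genes). The female call held in 19 of 32 fits that left out 1 library. It was lost, with a log2 difference of 0.35 and adjusted p = 0.191, without female E4/4 vehicle replicate 1.

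The counts within a sex moved with single libraries, and so did the counts among all genes. Over the 32 fits that each left out 1 library, calls among all genes ran from 765 to 3288 in females. In males they ran from 59 to 1047, so the swing was not limited to the members. The female count of 14 became 6 without E3/3 vehicle replicate 2 or 3, and 8 without E4/4 vehicle replicate 3 or 4. The male count of 10 became 4 without E3/3 vehicle replicate 1 or E4/4 vehicle replicate 1. It became 6 without E3/3 vehicle replicate 2 or E4/4 vehicle replicate 2 or 3, 5 without E4/4 vehicle replicate 4 and 2 without E3/3 vehicle replicate 4.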

How the data were processed

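Per the labels' protocols, total RNA from tissue homogenate was made into strand-preserving messenger RNA libraries, 1 per mouse, for 32 mice. The authors deposited raw counts by gene name, made with Trimmomatic, HISAT2 and featureCounts on GRCm38, per the submitters' processing notes. For versions, annotation and strand setting, nothing is stated there. The table held 57010 entries and 32 library columns, and 150 entries repeated a name. Columns were matched to mice by title. The labels also name each library by a number, and these numbers split completely by genotype. What the numbers record is not stated there.

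Counts were fitted in R 4.3.3 with edgeR 4.0.16 (TMM scaling, filterByExpr by group, minimum count 10, minimum total 15, robust quasi-likelihood). There was 1 coefficient per group, and comparisons averaged the sexes unless named. All 10 contrasts used all 32 libraries for the spread. P-values were two-sided and Benjamini-Hochberg adjusted over 20298 genes, with calls below 0.05. CPM are TMM-scaled, errors are SD, and SE refers to log2 fold changes. Depth classes were divided at 26 M counts. GC and length trends were removed as per-library offsets from natural splines with 5 degrees of freedom each. GC and length came from GENCODE M21 transcripts by symbol, for 94.46% of tested genes.

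Alternatives were DESeq2 1.42.0 (test and size factors), limma-voom 3.58.1, no filter, thinning to the smallest total, a replicate block, depth class, GC and length removal, higher-depth libraries alone, and each of 32 libraries left out. The additive or combined fits by depth class were added after the data were seen. The fit was tested on simulated data. Members and gene lists were chosen with earlier results of these data known. All 32 members are named. Full statistics are given for the 8 called members with the smallest adjusted p in vehicle mice, and of the other list for the 4 called genes with the smallest p.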

Additional observations from a re-analysis of the deposited data

Results flagged for a closer look

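In each group of 8 mice the highest and the lowest library were compared with the rest by Dixon's criterion, for 128 combinations of member and group. It marked 14, where chance marks about 1 in 20 groups. No cause was tested.

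In E4/4 vehicle mice, female replicate 1 was far above the others in 4 members. It had 234 CPM for Dlg3 (others 197 to 212), 264 CPM for Homer1 (141 to 169), 318 CPM for Iqsec1 (176 to 220) and 206 CPM for Iqsec2 (128 to 163). Male replicate 1 had 897 CPM for Ddn (753 to 808), and male replicate 2 had 77.6 CPM for Homer2 (37.8 to 55.2).

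In E3/3 vehicle mice, female replicate 1 was far below the others, with 263 CPM for Dlg2 (319 to 364) and 327 CPM for Kalrn (547 to 688). Female replicate 2 had 262 CPM for Shank3 (188 to 218), and female replicate 3 had 360 CPM for Synpo (261 to 306).

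In E3/3 D4F mice, female replicate 4 had 1015 CPM for Dlg4 (690 to 805) and male replicate 1 had 106 CPM for Shank2 (170 to 206). In E4/4 D4F mice, female replicate 4 had 55.9 CPM for Dlgap2 (36.1 to 42.0) and female replicate 2 had 83.5 CPM for Gphn (64.6 to 70.7).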

How the results depend on the processing

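Calls among all genes tested are given in brackets. The number of the 32 members called, 19 for genotype in vehicle mice (4137 genes), was 7 with depth class and GC and length trends both removed (389). It was 0 in higher-depth libraries alone (4), 1 there with sex additive (41) and 0 in lower-depth libraries with sex additive (0). These fits use fewer libraries or a further term. For D4F in E3/3 (5 members, 659 genes), it was 3 with trends removed (423), 8 with DESeq2 (1359) and 0 in the other 5 depth fits (0 in each). For treated E4/4 against vehicle E3/3 (19 members, 3927 genes), it was 12 with trends removed (2088) and 6 with both (459). In this comparison it was 0 in both higher-depth fits (0 in each) and 2 in the lower-depth fit (260). For genotype in females (14 members, 2097 genes), it was 7 with depth class (780), 2 with trends removed (167), 0 with both (10) and 0 at higher depth (0). For males (10 members, 806 genes), it was 4 without a filter (384) and 0 with depth class, with both and at higher depth (2 in each). Calls among all genes moved as well, so these moves were not limited to the members, and their cause was not tested.

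Leaving out 1 library at a time gave 16 to 21, 1 to 10, 17 to 21, 6 to 16 and 2 to 12 calls for these 5 comparisons, and 0 to 3 for the genotype by D4F interaction. Among all genes the calls ran from 3125 to 4871, 99 to 2188, 2941 to 4694, 765 to 3288 and 59 to 1047. For the interaction they ran from 0 to 303. Every log2 difference that was called kept its sign under all 32 of these. Under the other settings, 5 values of these 43 called differences changed sign. In lower-depth libraries with sex additive, Iqsec1 was at 0.13, Kalrn at 0.11 and Cnksr2 at 0.08 for genotype in vehicle mice. Ddn for D4F in E3/3 was at 0.01 in higher-depth libraries and 0.00 there with sex additive.

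Same-numbered mice in different groups did not deviate together on the whole. The correlation of their deviations had a median of 0.0121 over 112 pairs (−0.407 to 0.322), with 25 above 0.1. These values gave no sign of a pairing by number over all groups, but they cannot exclude a weak one or one between some groups. With the replicate number as a block, genotype in vehicle mice called 19 members (4067 genes) and D4F in E3/3 5 (604). Treated E4/4 against vehicle E3/3 called 19 (3839), females 14 (2004) and males 8 (669). No library pair within a group agreed within counting noise (chi-square per gene at least 9.66 over 48 pairs). Homer3, at 8.01 CPM on average, is the member that depth limits most.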
